A study of Mus musculus with 4 samples.

Results

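The genes described here encode the secreted Wnt proteins, their receptors, the secreted proteins that block or strengthen the signal, and the proteins that carry it to the nucleus. They were chosen by name: 19 Wnt ligands, 12 receptors (Fzd1 to Fzd10, Lrp5 and Lrp6), 10 antagonists (Sfrp1, Sfrp2, Sfrp4, Sfrp5, Frzb, Dkk1 to Dkk4 and Notum), 4 R-spondins (Rspo1 to Rspo4) and 7 effectors (Axin1, Axin2, Lef1, Tcf7, Tcf7l1, Tcf7l2 and Ctnnb1), in all 52 of 21827 protein-coding genes. A region of open chromatin was given to a member when the transcription start site (TSS) nearest to the region's midpoint, among protein-coding genes, was the member's, or when the region overlapped 1 kb either side of a TSS of the member, called its promoter here. By this rule 760 of 121574 regions belonged to the set, with 11770 of 2297894 reads (0.512%). The material was the dental mesenchyme of incisors of untreated wild-type C57BL/6 mice at 4 weeks of age, and ATAC-seq, in which a transposase inserts adapters into accessible DNA, was the assay. A mouse incisor never stops growing, and stem cells in its mesenchyme supply new pulp cells and new odontoblasts, the cells that make dentin. The 4 deposited samples are lanes that share 1 name in the tables, so there was 1 library, 1 group and nothing to compare it with. The number of animals is not stated in the labels.

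Because there was no replicate, no difference between genes was tested. Each read count is given with an exact 95% Poisson interval and each share with an exact binomial one. Both cover counting error alone, and take reads as independent, which amplified reads need not be. A gene next to a long stretch without other genes collects more regions under the nearest-TSS rule, so genes were compared per length: promoter reads per kb of promoter window, and all other reads per 100 kb of the sequence that lies nearest to the gene. The promoter window covers 1 kb either side of every TSS of the gene. A gene with scattered TSSs thus has a longer window, which lowers its reads per kb if some TSSs hold few reads. In a mixed tissue, fewer cells with an open region and a weaker opening in each cell cannot be told apart.

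The library was shallow for single regions: 463 of the 760 member regions (60.9%) had under 10 reads, against 61.0% of all regions, and 37 had 0. Markers were checked against the tissue label. A promoter region is listed for 64.6% of all protein-coding genes. All 7 mesenchyme markers had a promoter region, with 89 to 565 reads a gene and 609 promoter reads in sum. Most promoter reads were at Msx1 with 164, Twist1 with 157 and Col1a2 with 115, and fewest at Prrx1 with 30 and Prrx2 with 19. Per kb of promoter window only Prrx2, with 4.75, was under the all-gene median of 10.7. None of the 6 leukocyte markers had one, although they had 2 to 591 reads in other regions, most of them at Ptprc. Promoter regions were listed for 6 of 7 dental epithelium markers, with 8 to 247 reads a gene and 377 promoter reads in sum. They were listed for 4 of 5 endothelial markers, with 16 to 1032 reads a gene and 82 promoter reads in sum. The 1032 reads, the most of any marker here, were at Cdh5, and the promoter region of Emcn held 0 reads. Of the enamel genes among the epithelium markers, Ambn had 112 promoter reads and Amelx no promoter region. The part of epithelial or other cells in the values below was not tested.

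Wnt proteins are lipid-carrying secreted signals that bind Frizzled receptors together with the co-receptors Lrp5 and Lrp6. In the canonical branch this stops a complex built on Axin from marking beta-catenin, the product of Ctnnb1, for destruction, and beta-catenin then works with DNA-binding TCF/LEF proteins on target genes. In teeth, Wnt signals pass between epithelium and mesenchyme during development, and in adult dental mesenchyme they act on stem cells and on odontoblast formation.

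The roles differed most in where their reads lay. At receptor genes 49.3% of reads were at promoters (95% interval 47.7 to 51.0%, 1804 of 3658 reads), and at ligand genes 15.2% were (13.9 to 16.6%, 430 of 2833 reads). Effectors had 28.0% (26.4 to 29.7%), antagonists 26.0% (23.7 to 28.4%) and R-spondins 21.0% (18.5 to 23.8%), against 51.2% over all protein-coding genes. Receptors were thus near the level of all genes and the other 4 roles were below it, with ligands lowest. The levels depend on how regions are assigned: with regions over 50 kb from the TSS left out, the share was 50.7% at effectors, 24.8% at ligands and 64.9% over all genes. With the nearest TSS of any gene, coding or not, it was 66.5% at effectors, 25.9% at ligands and 73.3% over all genes.

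The same order at the ends was seen per length at promoters. The median receptor had 75.0 promoter reads per kb, the median effector 43.7, the median R-spondin 24.4, the median antagonist 13.2 and the median ligand 8.79, where the median of all genes was 10.7. Away from promoters, every role had a higher median than all genes. The R-spondins had a median of 154 reads per 100 kb there, effectors 122, receptors 86.9, antagonists 52.3 and ligands 51.3, with 12.6 for all genes. Of the 52 members, 48 were above that all-gene median, and the exceptions were Wnt1, Wnt9b, Dkk4 and Axin1. Ligands thus had the lowest median of the 5 roles in both places, a little under all genes at promoters and above all genes away from them, and 8 of 19 ligands exceeded the all-gene median of promoter reads per kb. The ligand median per kb was the value of Wnt5b, whose 53 promoter reads were divided by the windows of 4 TSSs. In promoter reads a gene, without division by length, the ligand median was 23 and the all-gene median 26.

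In counts of genes, 45 of the 52 members had a region at a promoter, against 64.6% of all protein-coding genes, and 50 had any region, against 77.0%. More reads than the median gene, which had 52, were found at 43 members, and 49.8% of all genes lie above that median. More reads away from the promoter than at it were found at 37 members, where 33.4% of all genes have this. By role these were 16 of 19 ligands, 5 of 12 receptors, 7 of 10 antagonists, all 4 R-spondins and 5 of 7 effectors. The 33.4% is a share of all genes, and those without a region cannot have this. The median length of nearest sequence was 105.6 kb at members and 47.4 kb over all genes. The part of this length in the counts was not tested. The single largest region of a gene lay away from its promoter at 26 members, against 36.2% of genes with a region, and 15 of these 26 were ligands.

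**Figure D1:**
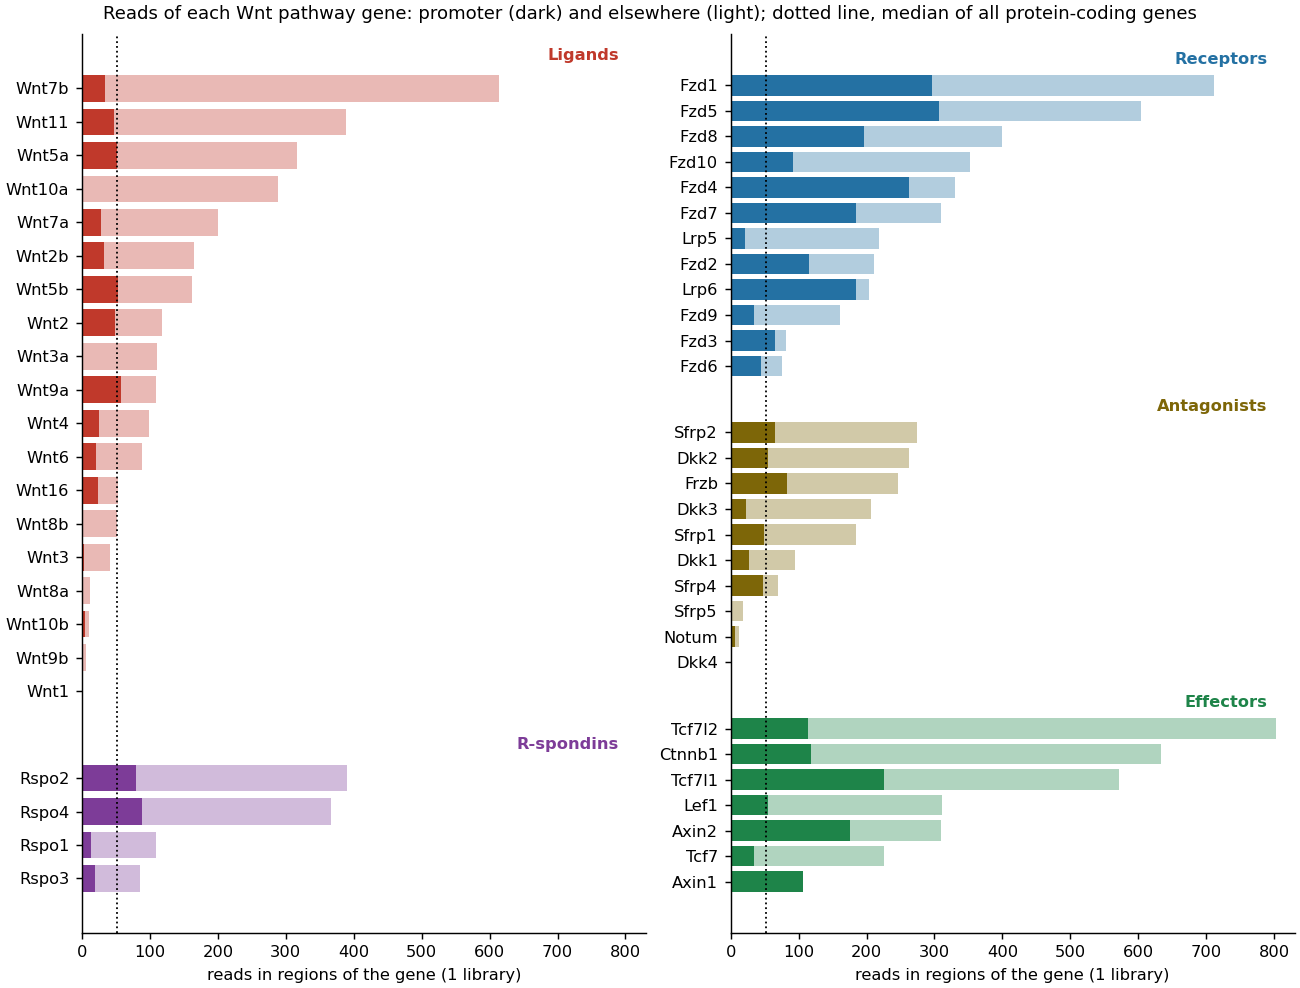
Reads per gene in the 1 library, one bar for each of the 52 genes by role, split into reads at the promoter (within 1 kb of a TSS) and reads in the other regions assigned to the gene. Receptor bars are largely promoter reads at Lrp6, Fzd4 and Fzd3, while the bar of Wnt7b (614 reads) holds 34 promoter reads.

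**Figure D2:**
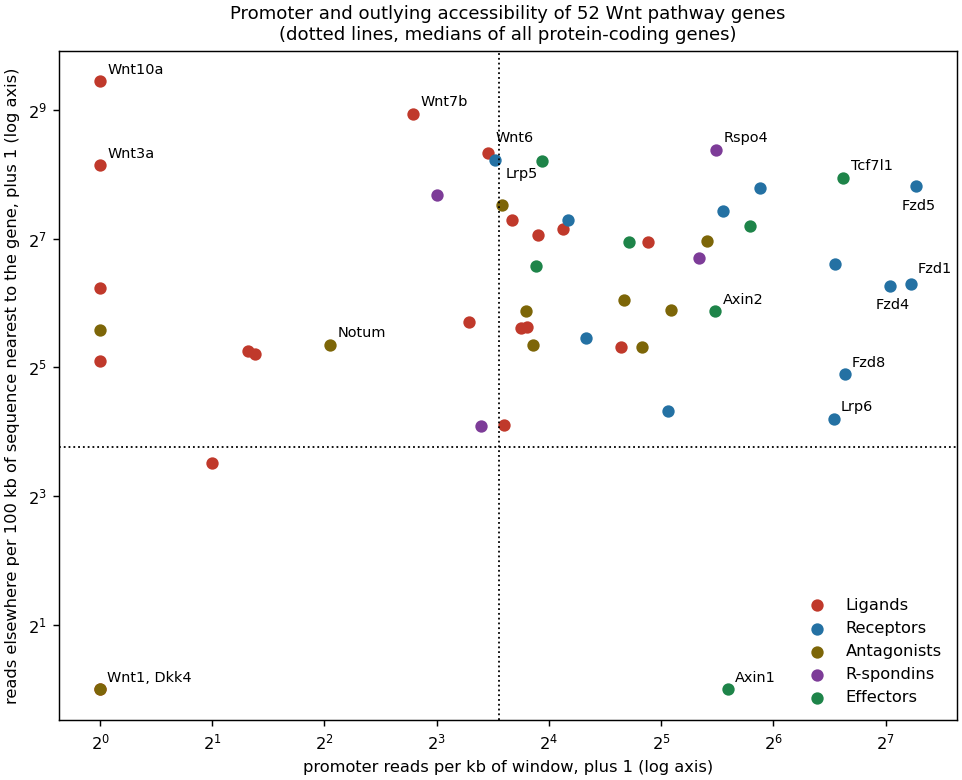
Promoter reads per kb of window (x axis) against other reads per 100 kb of nearest sequence (y axis), each plus 1 on log axes, one point a gene and colour by role. Dotted lines are the medians of all protein-coding genes, 10.7 and 12.6; Wnt10a and Wnt3a sit at the left edge with no promoter read, Axin1 at the bottom with no other read, and Wnt1 and Dkk4 share the corner point.

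Among receptors, the Frizzled genes Fzd1, Fzd5 and Fzd4 had the most open promoters. Fzd5 had 307 promoter reads (273.6 to 343.3), or 153 per kb, Fzd1 had 297 (264.2 to 332.8), or 148 per kb, and Fzd4 had 262 (231.2 to 295.7), or 131 per kb. Their intervals overlap, so these 3 promoters could not be ordered. The largest promoter region of any member was the one over the Fzd5 start, chr1:64737337-64738185 in mm10, with 302 reads (268.9 to 338.1). Fzd8 with 98.5 promoter reads per kb, Fzd7 with 92.5 and Lrp6 with 92.0 came next, followed by Fzd2 with 58.0, Fzd10 with 46.0, Fzd3 with 32.5, Fzd6 with 19.1 and Fzd9 with 17.0. All 12 receptors had a promoter region, and only Lrp5, at 10.5 per kb, was under the median of all genes.

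By total reads the receptors ran from Fzd1 with 712 (660.7 to 766.3), Fzd5 with 604 (556.8 to 654.1) and Fzd8 with 400 (361.8 to 441.2) down to Lrp6 with 203 (176.0 to 232.9), Fzd9 with 161 (137.1 to 187.9), Fzd3 with 81 (64.3 to 100.7) and Fzd6 with 75 (59.0 to 94.0). Between them lay Fzd10 with 352, Fzd4 with 330, Fzd7 with 310, Lrp5 with 219 and Fzd2 with 211. The length of nearest sequence also differed: 537 kb lie nearest to Fzd1 and 707 kb to Fzd8, while 43.1 kb lie nearest to Fzd2. Fzd5, with 133 kb, had more reads than Fzd8, and the part of length in this order was not tested. Per 100 kb of nearest sequence Lrp5 had 299 reads outside its promoter, Fzd5 224, Fzd2 221, Fzd1 77.4 and Lrp6 17.4.

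The co-receptors Lrp5 and Lrp6, which bind Wnt together with a Frizzled, had almost equal totals in opposite places. At Lrp6 184 of 203 reads were in the promoter (158.4 to 212.6) and 19 elsewhere (11.4 to 29.7). At Lrp5 21 of 219 reads were in the promoter (13.0 to 32.1) and 198 elsewhere (171.4 to 227.6). The largest Lrp5 region, chr19:3642480-3642872 with 53 reads (39.7 to 69.3), lay in an intron of Lrp5 43.9 kb into the gene, close to another intronic region of 32 reads. At receptors the largest region away from a promoter was near Fzd2, chr11:102610862-102611662 with 63 reads (48.4 to 80.6), in intergenic sequence 6.9 kb downstream of the TSS.

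The 200 bases before the start of Fzd5 and Lrp6 are shown because they are open promoters, and those of Wnt3a and Wnt10a because no region was listed there. Sequences here are from the RefSeq copy of GRCm38.p6 (mm10), 5′ to 3′; these 4 are on the gene's strand, which is minus for Fzd5, Lrp6 and Wnt3a and plus for Wnt10a, with each CG pair in capitals.
Fzd5 chr1:64737752-64737951: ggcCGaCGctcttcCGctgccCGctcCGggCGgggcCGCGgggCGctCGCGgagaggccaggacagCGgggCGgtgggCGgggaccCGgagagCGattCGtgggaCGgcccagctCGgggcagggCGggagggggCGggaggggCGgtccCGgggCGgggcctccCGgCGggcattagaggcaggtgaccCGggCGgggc
Lrp6 chr6:134566914-134567113: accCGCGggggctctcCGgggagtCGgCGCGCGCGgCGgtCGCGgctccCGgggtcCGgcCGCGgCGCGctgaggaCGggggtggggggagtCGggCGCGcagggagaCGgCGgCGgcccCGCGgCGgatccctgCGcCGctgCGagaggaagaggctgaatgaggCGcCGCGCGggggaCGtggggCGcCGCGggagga
Wnt3a chr11:59290753-59290952: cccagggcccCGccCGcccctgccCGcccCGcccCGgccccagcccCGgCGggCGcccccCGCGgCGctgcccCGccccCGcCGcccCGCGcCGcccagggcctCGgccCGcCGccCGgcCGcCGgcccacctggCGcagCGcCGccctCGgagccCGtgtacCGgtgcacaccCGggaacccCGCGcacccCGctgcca
Wnt10a chr1:74791316-74791515: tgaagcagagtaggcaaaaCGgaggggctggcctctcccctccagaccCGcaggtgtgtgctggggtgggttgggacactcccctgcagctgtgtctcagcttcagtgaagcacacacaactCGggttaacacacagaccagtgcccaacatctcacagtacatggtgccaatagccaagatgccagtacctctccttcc
They hold 28, 38, 33 and 3 CG pairs in that order. The Wnt3a stretch is thus as dense in CG pairs as those of the open receptors, and the Wnt10a stretch is sparse.

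CpG content was compared because CpG-rich promoters are open in most tissues. The observed-to-expected CpG ratio within 1 kb of the TSS had a median of 0.61 at ligands, 0.74 at receptors, 0.52 at antagonists, 0.54 at R-spondins and 0.72 at effectors, against 0.46 for all genes. Across the 52 members the ratio and promoter reads per kb had a Spearman correlation of 0.55, and across all 21827 genes 0.76; genes are not independent replicates, and all values share 1 library. Of the members, 43 had a ratio above the all-gene median. The combination of a ratio above that median and promoter reads per kb below their median was found at 12 of 52 members, against 8.94% of all genes. Members more often had a high ratio than all genes did, and its part in this difference was not tested. The 12 were the 8 ligands Wnt1, Wnt3, Wnt3a, Wnt5b, Wnt6, Wnt7b, Wnt9b and Wnt10b, with Lrp5, Sfrp5, Notum and Rspo1, and none was an effector. Among members with a ratio above the median they were 8 of 15 ligands, 1 of 12 receptors, 2 of 7 antagonists and 1 of 2 R-spondins. Of the 12, Wnt5b (53 promoter reads, 4 TSSs) and Wnt7b (34, 5 TSSs) were above the all-gene median of 26 promoter reads. They fell below the median only per kb of window.

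**Figure D3:**
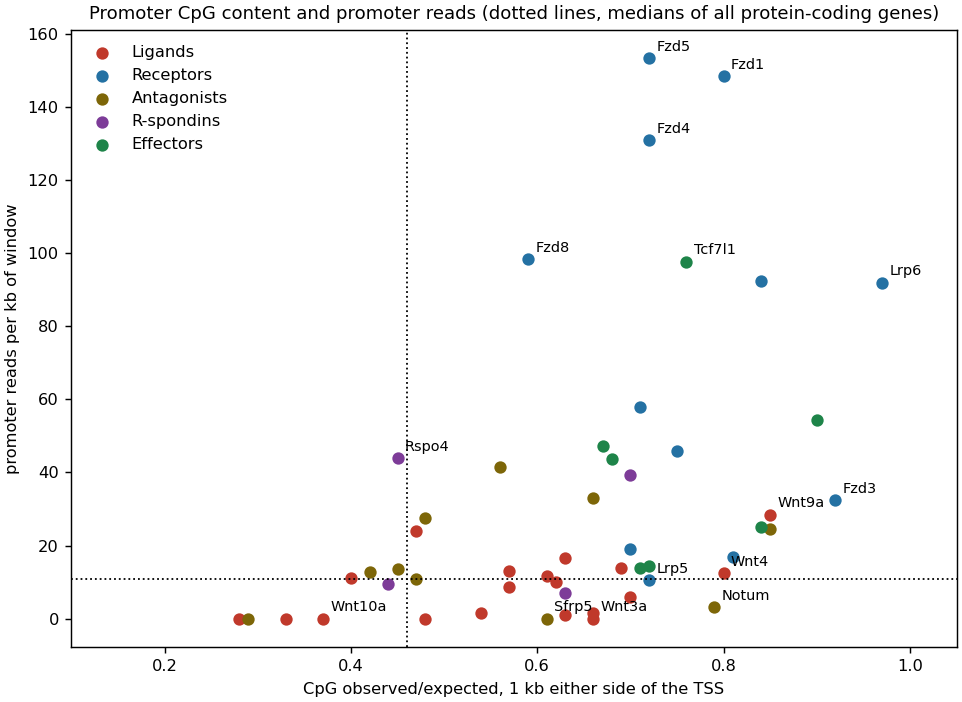
CpG observed-to-expected ratio within 1 kb of the TSS (x axis) against promoter reads per kb of window (y axis) for the 52 genes, colour by role, with the medians of all protein-coding genes dotted. Receptors reach 153 reads per kb at Fzd5, while all 19 ligands stay at or under 28.5 per kb, including Wnt9a with a ratio of 0.85 and Wnt4 with 0.80.

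Ligand promoters had few reads beside those of the other roles, though 14 of 19 ligands had a promoter region. Per kb the most were at Wnt9a, with 28.5 (57 promoter reads, 43.2 to 73.9), and Wnt2, with 24.0 (48 promoter reads, 35.4 to 63.6). Wnt5b with 53 and Wnt5a with 52 had more promoter reads than Wnt2, but 8.79 and 13.0 per kb. The largest single region at a ligand promoter, at the start of Wnt9a (chr11:59306647-59307123), had 41 reads (29.4 to 55.6). No promoter region was listed for 5 ligands: Wnt1, Wnt3a, Wnt8a, Wnt8b and Wnt10a. At Wnt10a the nearest regions lay just outside the window, 1.7 kb downstream of the TSS with 16 reads (9.1 to 26.0) and 2.2 kb upstream with 19 (11.4 to 29.7). Wnt1 had no region at all, and a missing region is not a measured count of 0. Wnt3, Wnt9b and Wnt10b had a promoter region with 3, 2 and 5 reads.

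Around these promoters, some ligands had many reads. Wnt7b, which in many tissues is an epithelial signal, had the most of any ligand, with 614 reads (566.4 to 664.5). Only 34 of them lay at its promoter, and 580 lay elsewhere. Wnt11, a ligand of the noncanonical branch, followed with 389 (351.3 to 429.6) and Wnt5a, the best-known noncanonical ligand, with 317 (283.1 to 353.9). The fewest, after Wnt1, were at Wnt9b with 6 (2.2 to 13.1), Wnt10b with 10 (4.8 to 18.4) and Wnt8a with 12 (6.2 to 21.0). The other 12 lay between them: Wnt10a 288 reads, Wnt7a 200, Wnt2b 165, Wnt5b 162, Wnt2 118, Wnt3a 111, Wnt9a 109, Wnt4 99, Wnt6 88, Wnt16 53, Wnt8b 51 and Wnt3 41.

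Per length the leading ligand was a different one. Wnt10a, which is known for tooth defects when mutated, had 694 reads per 100 kb outside its promoter, at the 99.4th percentile of all genes. Wnt7b had 490, Wnt6 322, Wnt3a 282 and Wnt11 155, whereas Wnt5a, with 550 kb of nearest sequence, had 48.2.

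At Wnt7b most reads came from a pair of regions far upstream. One, chr15:85634394-85635131, had 254 reads (223.7 to 287.2), 52.3 kb upstream in intergenic sequence and 11321 bases from the nearest TSS of any gene, that of the noncoding Gm49539. It had more reads than 99.4% of all regions. The other, chr15:85653410-85654362, had 150 reads (127.0 to 176.0), 71.4 kb upstream, inside the noncoding genes Gm49539 and Lncppara and 270 bases from the Lncppara TSS. Together they held 65.8% of the reads of Wnt7b, and without them it had 210. Whether either region acts on Wnt7b was not measured.

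Other large ligand regions lay at various distances. An intergenic region 86.4 kb downstream of the Wnt7a TSS (chr6:91324664-91325300) had 93 reads (75.1 to 113.9). At Wnt11 the largest, chr7:98815123-98816058, had 117 reads (96.8 to 140.2) in intergenic sequence 19.5 kb upstream. At Wnt10a the largest, chr1:74806539-74807157, had 68 reads (52.8 to 86.2) 15.3 kb downstream of the TSS, and with the 2 regions that abut it formed a stretch of 1873 bases with 140 reads (117.8 to 165.2). At Wnt3a, 56 of 111 reads were in an intronic region 16.1 kb downstream of the TSS, and 30 in another 26.8 kb downstream.

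The middle 200 bases of 3 large regions away from promoters are shown on the plus strand, CG pairs in capitals. They are the largest outlying regions of Wnt7b, Wnt10a and Rspo4. In that order the regions had 254 of 580, 68 of 288 and 139 of 278 reads outside the promoter.
Wnt7b chr15:85634662-85634861: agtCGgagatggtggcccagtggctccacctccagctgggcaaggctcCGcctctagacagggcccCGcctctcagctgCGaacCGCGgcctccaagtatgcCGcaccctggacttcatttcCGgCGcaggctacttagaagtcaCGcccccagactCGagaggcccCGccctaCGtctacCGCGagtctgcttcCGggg
Wnt10a chr1:74806748-74806947: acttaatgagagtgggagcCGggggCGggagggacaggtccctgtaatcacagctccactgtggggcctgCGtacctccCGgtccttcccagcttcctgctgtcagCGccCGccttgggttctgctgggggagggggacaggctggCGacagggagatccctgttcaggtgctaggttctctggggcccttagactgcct
Rspo4 chr2:151806712-151806911: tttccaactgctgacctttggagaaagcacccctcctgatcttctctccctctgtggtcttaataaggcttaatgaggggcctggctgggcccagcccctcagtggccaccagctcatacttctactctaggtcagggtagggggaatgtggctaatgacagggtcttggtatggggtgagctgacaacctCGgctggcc
They hold 16, 7 and 1 CG pairs, so the CpG content of large outlying regions was not alike. The Rspo4 stretch holds TGTGGT, the word counted for RUNX factors, and none of the 3 stretches holds a TCF/LEF word. The whole Rspo4 region holds 1 TCF/LEF word, outside the stretch shown.

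**Figure D4:**
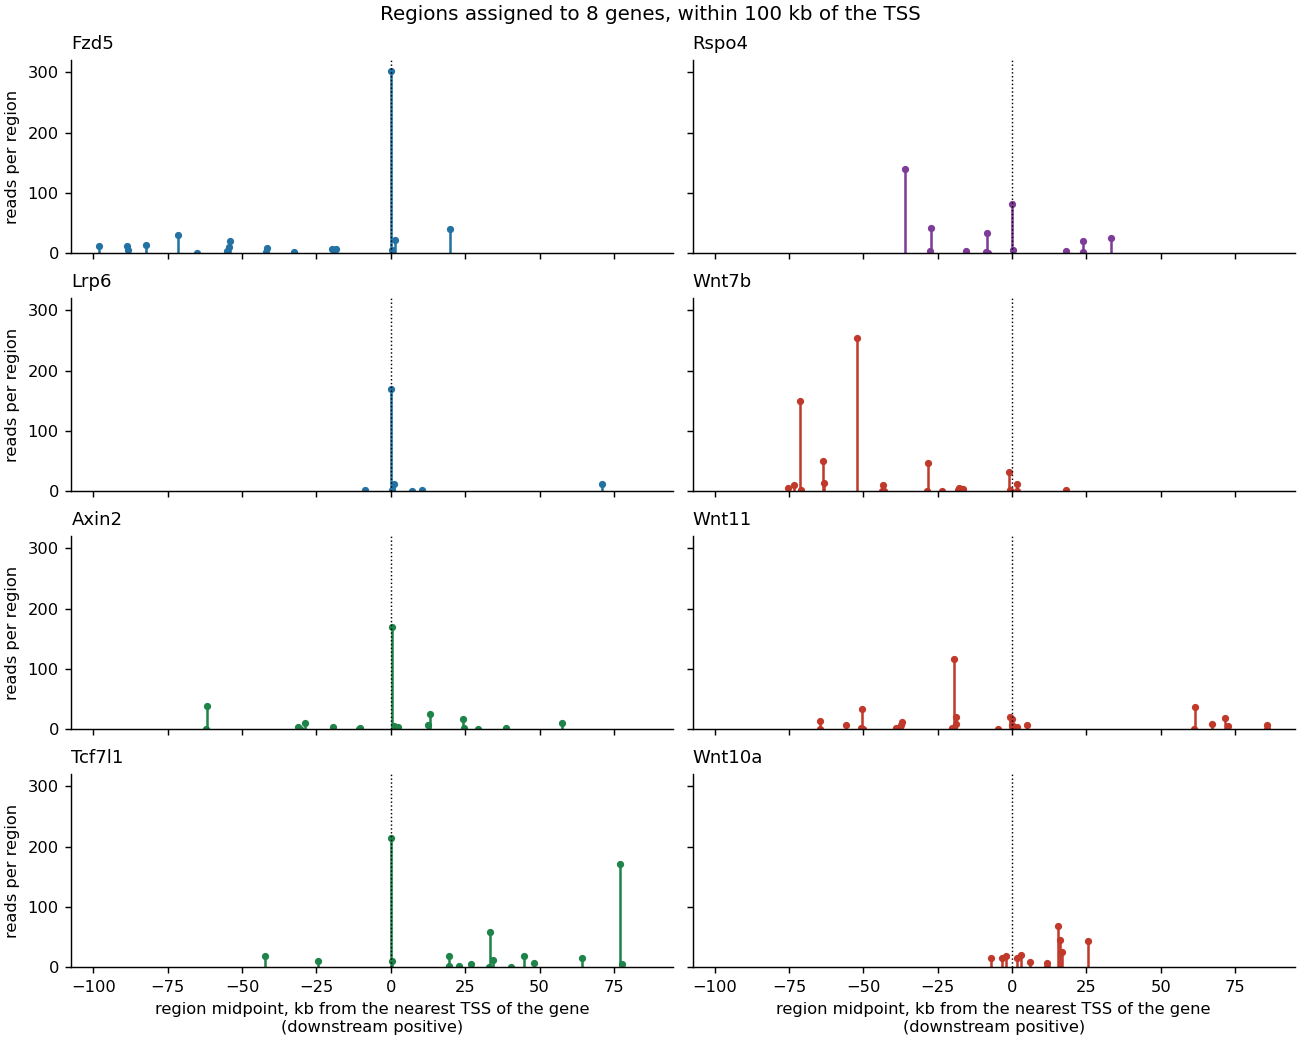
Reads in each region (y axis) against the distance of its midpoint from the nearest TSS of its gene in kb (x axis, downstream positive), for 8 genes within 100 kb, colour by role. Fzd5, Lrp6 and Axin2 peak at the TSS, Wnt7b peaks 52.3 kb and Rspo4 36.1 kb upstream, and Tcf7l1 peaks both at the TSS (214 reads) and 77.2 kb downstream (171 reads).

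Mouse Wnt genes often lie in neighbouring pairs, and 4 pairs are among the ligands. The pair Wnt6 and Wnt10a on chromosome 1, with starts 19.6 kb apart, had 376 reads in 17 regions (339.0 to 416.0), or 600.0 per 100 kb. Wnt3a and Wnt9a on chromosome 11, 16.2 kb apart, had 220 reads in 15 regions (191.9 to 251.1), or 269 per 100 kb. The other pairs were far lower, with 47 reads (34.5 to 62.5), or 33.5 per 100 kb, at Wnt9b and Wnt3 and 10 reads (4.8 to 18.4), or 34.8 per 100 kb, at Wnt10b and Wnt1. The intervals are for total reads, and no 2 of the 4 overlapped. The nearest sequence ranged from 28.8 kb at Wnt10b and Wnt1 to 140 kb at Wnt9b and Wnt3, and per 100 kb these 2 pairs were close. Within the Wnt6 and Wnt10a pair, 114 reads in 5 regions lay between the starts, where the nearest-TSS rule divides regions by distance alone.

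**Figure D5:**
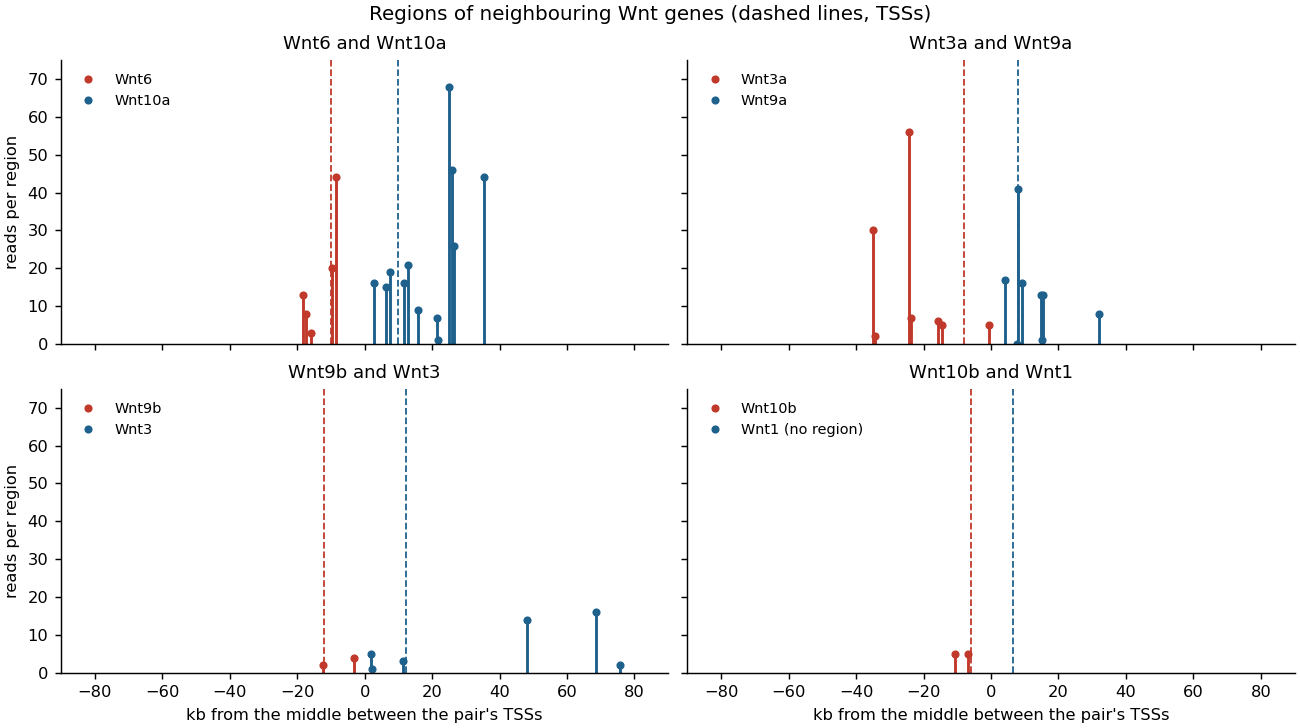
Reads per region (y axis) along 4 neighbouring pairs of Wnt genes, by distance in kb from the midpoint between the starts (x axis), coloured by the gene to which the region was assigned. Regions reach 68 reads at Wnt6 and Wnt10a and 56 at Wnt3a and Wnt9a, and no region exceeds 16 reads at Wnt9b and Wnt3 or 5 at Wnt10b and Wnt1.

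The antagonists act outside the cell: Sfrp proteins and Frzb bind Wnt, Dkk proteins (apart from Dkk3, whose part is less clear) bind the Lrp co-receptors, and Notum removes the lipid from Wnt. Most reads were at Sfrp2 with 274 (242.5 to 308.4), Dkk2 with 263 (232.2 to 296.8) and Frzb with 247 (217.2 to 279.8). Fewest were at Dkk4, which had no region, Notum with 12 (6.2 to 21.0) and Sfrp5 with 18 (10.7 to 28.5), which had no promoter region. The rest were Dkk3 with 206, Sfrp1 with 184, Dkk1 with 95 and Sfrp4 with 70. The length of nearest sequence differed too, and its part in these totals was not tested. To Sfrp2 357 kb lie nearest and to Sfrp5 38.5 kb, and outside promoters they had 58.3 and 46.8 reads per 100 kb. Per length Dkk3 led with 182 and Frzb followed with 123, while Dkk2, with 533 kb, had 39.1 and Dkk1 39.9. At promoters Frzb had 41.5 reads per kb, Sfrp2 33.0, Dkk2 27.5 and Sfrp1 24.5.

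Antagonist regions were modest in size. The largest at a promoter was at the start of Sfrp2 (chr3:83765956-83766829) with 66 reads (51.0 to 84.0), and the largest away from one was 93.3 kb downstream of Sfrp1 (chr8:23504346-23505260), intergenic, with 79 reads (62.6 to 98.5). Frzb had 83 promoter reads in several smaller regions and Dkk3 22, with 53 reads 21.3 kb and 50 reads 29.2 kb upstream of Dkk3. Per length outside the promoter, Notum had few reads to divide, 5 in 12.5 kb.

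R-spondins strengthen Wnt signals by keeping Frizzled receptors on the cell surface. Rspo2 had 390 reads (352.2 to 430.7) and Rspo4 366 (329.5 to 405.5), with overlapping intervals, and Rspo1 had 109 (89.5 to 131.5) and Rspo3 86 (68.8 to 106.2). Per length Rspo4 stood above Rspo2, with 333 reads per 100 kb outside the promoter, since 83.5 kb are nearest to Rspo4 and 303 kb to Rspo2. The largest R-spondin region lay 36.1 kb upstream of Rspo4 in intergenic sequence, chr2:151806582-151807043, with 139 reads (116.9 to 164.1), more than the 82 reads (65.2 to 101.8) of the region at the Rspo4 start (chr2:151842510-151843141). Rspo2 had no such single peak. Its outlying reads were spread over several intronic regions, the largest with 36 reads (25.2 to 49.8), and its largest promoter region had 65.

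Effectors had the highest median of total reads, 311, against 265 at receptors, 238 at R-spondins, 140 at antagonists and 109 at ligands. With the nearest TSS of any gene this order turned, with 118 at effectors and 207 at receptors. Beta-catenin's gene Ctnnb1 and the TCF genes Tcf7l1 and Tcf7l2 had many outlying reads: 688 of 802 reads at Tcf7l2 (interval of the total 747.4 to 859.5), 515 of 633 at Ctnnb1 (584.6 to 684.3) and 347 of 572 at Tcf7l1 (526.1 to 620.9). Fewest reads in total were at Axin1, the scaffold of the destruction complex, with 107 (87.7 to 129.3), Tcf7 with 225 (196.6 to 256.4) and Axin2 with 309 (275.5 to 345.4), and Lef1 had 311 (277.4 to 347.6). The order differed per length. Per 100 kb outside the promoter Tcf7 led with 294 reads, followed by Tcf7l1 with 246, Ctnnb1 146, Tcf7l2 122, Lef1 94.1, Axin2 57.7 and Axin1 0. To Tcf7 64.6 kb lie nearest, to Ctnnb1 353 kb and to Tcf7l2 562 kb. Effectors had the longest median of nearest sequence among the roles, 232 kb, and its part in their totals was not tested. All 7 had a promoter region and were above the all-gene median of promoter reads per kb.

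The paralogs Axin1 and Axin2 differed in layout. Every read counted for Axin1 was at its promoter, whereas Axin2, a target of Wnt signalling as well as an inhibitor of it, had 175 promoter reads (150.0 to 202.9) and 134 elsewhere (112.3 to 158.7). The 4 TCF/LEF genes, which share a DNA-binding domain, also differed. Tcf7l1 had 97.7 promoter reads per kb and the largest promoter region among effectors, chr6:72788686-72789712 with 214 reads (186.3 to 244.7). Tcf7l2 had 25.2 per kb, although its total was the highest of all members. Its 114 promoter reads were divided by the windows of 9 TSSs, against 2 at Tcf7l1, and 105 of them lay in 1 region. Away from promoters the largest effector region was in an intron of Tcf7l1 itself, chr6:72711388-72712176, with 171 reads (146.3 to 198.6), 77.2 kb downstream of the TSS.

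Some regions counted under effectors lie within other genes. The largest outlying region of Ctnnb1 (109 reads, 89.5 to 131.5), 68.5 kb downstream of its TSS, is in an intron of Ulk4, and that of Tcf7l2 (93 reads, 75.1 to 113.9), 163 kb upstream, is in an intron of Vti1a. At Tcf7 the largest region, chr11:52271832-52272390 with 81 reads (64.3 to 100.7), is in its own intron 10.5 kb downstream of the TSS and larger than the region of 34 reads at its start.

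Words that TCF/LEF proteins can bind were searched on both strands as CTTTG followed by AA, AT, TA or TT. The promoter region of Axin2, chr11:108920185-108921259 with 169 reads (144.5 to 196.5), held 4 such words in 1075 bases. In windows of that width at all 25044 promoter regions, 39.8% held any and 0.459% held as many. Stretches of 160 bases with these words in capitals are shown for Axin2, and for the outlying regions of Tcf7 and Tcf7l2 named above, all on the plus strand.
Axin2 chr11:108920713-108920872: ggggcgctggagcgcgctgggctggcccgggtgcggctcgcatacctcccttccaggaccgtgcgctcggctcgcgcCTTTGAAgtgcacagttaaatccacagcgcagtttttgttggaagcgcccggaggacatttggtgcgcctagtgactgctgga
Axin2 chr11:108921100-108921259: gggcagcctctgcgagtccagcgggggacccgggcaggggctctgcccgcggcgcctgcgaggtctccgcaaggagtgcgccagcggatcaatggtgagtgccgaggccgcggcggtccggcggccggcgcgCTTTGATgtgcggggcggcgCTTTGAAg
Tcf7 chr11:52272074-52272233: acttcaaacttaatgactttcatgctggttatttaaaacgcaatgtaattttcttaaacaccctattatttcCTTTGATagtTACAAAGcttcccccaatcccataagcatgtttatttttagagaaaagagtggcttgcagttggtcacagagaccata
Tcf7l2 chr19:55578296-55578455: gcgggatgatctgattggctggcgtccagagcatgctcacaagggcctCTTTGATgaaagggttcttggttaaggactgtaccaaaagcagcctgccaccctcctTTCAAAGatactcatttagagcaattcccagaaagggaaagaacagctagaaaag
The first holds 1 word and the others 2 each, and the fourth Axin2 word lies outside the stretches shown. A word is a match of letters and not a measured binding site.

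Over the whole set, TCF/LEF words were about as frequent as in other open regions. In the central 300 bases they were in 154 of 651 member regions away from promoters (23.7%, 20.4 to 27.1%), against 23.5% of all 96530 such regions, and in 13 of 109 at promoters (11.9%, 6.51 to 19.5%), against 10.3% of 25044. The other words searched were TGANTCA for AP-1, TGTGGT for RUNX factors and TAATTA for homeobox factors. In regions away from promoters AP-1 words were in 10.3% (8.07 to 12.9%) of member regions and 11.1% of all, RUNX words in 25.7% (22.3 to 29.2%) and 25.4%, and homeobox words in 15.5% (12.8 to 18.5%) and 13.9%. Each of these shares of all regions lay within the member interval. Among 20 combinations of role and word away from promoters, the interval left out the share of all regions at antagonists for RUNX words alone, at 36 of 99 regions (36.4%, 26.9 to 46.6%). This case was picked out of those 20 after its value was seen. The intervals for words take regions as independent. Member regions abut in 139 stretches, where neighbouring windows of 300 bases can hold the same word.

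Of the 651 regions away from promoters, 311 were intergenic, 263 intronic, 57 in noncoding genes, 11 in coding and 9 in untranslated exons. In 158 of the 263 the intron was the member's own. Within 1 kb of the TSS of a noncoding gene lay 40 of the 651, with 586 reads (7.19% of reads away from promoters), so some of what is called outlying here is at the start of a noncoding transcript. By distance, 32.7% of ligand reads and 25.8% of effector reads were 50 to 100 kb from the TSS, against 8.34% over all genes. Without Wnt7b the ligand share was 19.8%. Over 100 kb away lay 6.25% of ligand reads and 12.8% of all, with 14.7% at receptors to 18.9% at effectors in the other roles. Span and outlying reads had a Spearman correlation of 0.66 over the 52 members and 0.59 over all genes. A longer span gives the nearest-TSS rule more regions to assign.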

How the data were processed

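Accessibility was measured by ATAC-seq in wild-type incisor dental mesenchyme (1 library, 4 lanes under 1 name). Per the labels' protocols, BWA-MEM aligned the reads to mm10, MACS2 called peaks and HOMER annotated them; the submitters' processing notes name STAR 2.6.1d and Partek. How duplicates, mitochondrial reads and the transposase offset were treated, and the use of other libraries in calling regions are not given in the sources used here, nor whether a count is a read or a fragment. Duplicates left in would raise some counts and make the intervals too narrow. The authors deposited CPM values per region with 1 read added. In 99.9% of regions these were integer multiples of 0.0484, the CPM of 1 read (tolerance 0.01 read, 84 exceptions), and so reads are the multiple minus 1. The authors also deposited expected counts for 16382 of the regions (10 not whole), from which the recovered reads differed by at most 0.00155. The table's 1 further value column matches no sample and was left out.

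TSSs are those of protein-coding genes in GENCODE vM21 basic. A gene without a region counts as 0 in medians. The design assumed a value per lane, which the tables do not give, so lanes could not be compared. The members, roles, 40 further pathway genes and markers were chosen with earlier results of these data known. A further marker list is not reported here. Named in full are the 3 members with most and fewest reads in each role, the largest promoter and outlying region of each role, members without a region or promoter region, and neighbouring Wnt genes. The comparison of the Axin paralogs, the CpG combination, the Axin2 words and the sequences shown were chosen after their values were seen. Code ran in Python 3.11.15 (pandas 2.3.3, SciPy 1.17.1, pysam 0.24.0), and assignment and counting were tested on simulated data.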

Additional observations from a re-analysis of the deposited data

How the results depend on the processing

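Of 85 values compared under 6 alternatives, 45 moved by less than their error or not at all, and 40 moved further. Some of the 45 could not move and say nothing about stability. Median reads do not use the promoter window. Counts of members with a promoter region depend neither on the 50 kb limit nor on the nearest TSS. Leaving out a lane could not be run, since the lanes share 1 name. No paired analysis was possible because there is 1 group with 1 shared name. Promoter shares for ligands, receptors and antagonists were 9.81, 45.5 and 18.9% with a 500 bp window, and 18.6, 51.0 and 31.0% with 2 kb. Without regions under 10 reads, median reads were 77 (ligands), 221 (receptors), 107 (antagonists), 203.5 (R-spondins) and 272 (effectors), and shares 56.0% (receptors), 29.7% (antagonists) and 31.7% (effectors). In the same order of the 5 roles, leaving out regions over 50 kb from the TSS gave medians of 67, 224.5, 76, 124 and 225 and shares of 24.8, 67.3, 38.4, 30.4 and 50.7%; giving regions to the nearest TSS of any gene gave medians of 64, 207, 87, 98.5 and 118 and shares of 25.9, 70.0, 40.0, 33.3 and 66.5%. Without the member with most reads, medians were 219 (receptors), 95 (antagonists) and 109 (R-spondins), and shares 17.9% (ligands), 51.2% (receptors) and 33.2% (effectors). In all 6 alternatives receptors had the highest and ligands the lowest share, while antagonists passed effectors with 2 kb (28.7% at effectors) and R-spondins passed antagonists with 500 bp (19.6% at R-spondins). Receptors passed effectors in median reads with TSSs of any gene, and antagonists fell below ligands without the top member. Depth limits single regions: most had under 10 reads.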

Other observations

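Of 40 other genes of the pathway, all had a region, against 77.0% of all protein-coding genes, and 37 had a promoter region, against 64.6%. Their median was 208.5 reads a gene. Of the reads of the 40 genes together, 49.0% were at promoters (5212 of 10632), against 51.2% over all protein-coding genes. Most reads were at Tle4 with 956 (896.4 to 1019), Gsk3b with 871 (814.1 to 930.8) and Tle3 with 791 (736.8 to 848.1). Tle4 and Tle3 encode co-repressors that TCF proteins bind, and Gsk3b a kinase of the beta-catenin destruction complex. They differed in layout: 762 of 871 reads were at the promoter of Gsk3b, 513 of 956 at those of Tle4 and 55 of 791 at those of Tle3. Fewest reads were at Sost with 15 (8.4 to 24.7), an antagonist known from bone, Apc2 with 22 (13.8 to 33.3) and the Dkk co-receptor gene Kremen2 with 36 (25.2 to 49.8). No promoter region was listed for Kremen2, Sost and Tle2.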
